A study of Mus musculus with 15 samples.

Results

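The miR-30 family is described here across 15 mouse brain small RNA libraries as 7 mature microRNAs (miRNAs), taken by name from the 683 distinct names in the tables. They are the 5p arms mmu-miR-30a-5p, mmu-miR-30b-5p, mmu-miR-30c-5p, mmu-miR-30d-5p and mmu-miR-30e-5p, and the 3p arms mmu-miR-30a-3p and mmu-miR-30e-3p, written below without the prefix for mouse. All 7 passed the filter on low counts. The wild-type (WT) mice fell into 3 groups of 5: sham operation with distilled water by gavage, intracerebral haemorrhage (ICH, bleeding inside the brain) with the same water, and ICH with Buyang Huanwu decoction (BYHWD, a herbal mixture of traditional Chinese medicine). The decoction was given by gavage at 6.19 g/kg daily for 14 days from the day after surgery, and all groups were perfused with saline and sampled on day 14. The basal ganglia on the operated side were taken, but the RNA protocol names an exosome pellet, so whole tissue and vesicles cannot be told apart as its source. The sources used here do not give strain, age or the way the bleed was made. The labels do not tie each library to its own mouse, so the p-values measure the spread between these libraries.

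A miRNA is cut from a hairpin precursor that can give a mature strand from each side, the 5p arm and the 3p arm. The strand that is loaded into an Argonaute protein pairs with messenger RNAs mainly through its seed, bases 2 to 8, and lowers their stability or translation. The miR-30 family is abundant in many mammalian tissues, brain included, and is known for restraining the epithelial-mesenchymal regulator Snai1. Because its 5p arms share a seed, they can act on overlapping sets of targets.

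The mature sequences below show what the arms share and where they differ. They come from RefSeq on GRCm38.p6, which held 5 of the 7 members, and capitals mark the seed.

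miR-30a-5p: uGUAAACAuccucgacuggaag
miR-30e-5p: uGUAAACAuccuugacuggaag
miR-30c-5p: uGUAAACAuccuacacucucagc
miR-30a-3p: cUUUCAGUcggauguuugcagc
miR-30e-3p: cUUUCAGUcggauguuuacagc
miR-384-5p: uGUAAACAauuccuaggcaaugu

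MiR-30a-5p and miR-30e-5p differed at 1 base, C13U, counted from 1 at the 5′ end with the base of miR-30a-5p first. Between miR-30a-5p and miR-30c-5p there were 5 differences over 22 bases, all in the 3′ part: C13A, G14C, G18C, G19U and A20C. The 3p arms miR-30a-3p and miR-30e-3p differed at G18A. The 5p seed was found in 4 of the 574 names in the tables that have a RefSeq sequence (0.697%), and the fourth was miR-384-5p, which shares the seed but differs from miR-30a-5p at 10 bases. The 3p seed was found in 2 of them (0.348%). The sources used here do not say how many mismatches the authors allowed. Some reads of miR-30a-5p and miR-30e-5p, which differ at 1 base, may thus have been counted for the other. Without a sequence for miR-30b-5p and miR-30d-5p, the same could not be checked for these members. No other name in the tables had counts within 1% of those of a member in every library.

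On GRCm38, the sequenced members come from hairpins in 2 places. Mir30a is on the plus strand of chromosome 1, from 23272269 to 23272339, and no host gene is annotated there on that strand. Mir30c-2 follows from 23291701 to 23291784 on the same strand, 19361 bases further on, in an exon of the long noncoding RNA gene Gm27028. Mir30e lies on chromosome 4 at 120772606 to 120772697 and Mir30c-1 at 120769534 to 120769622, both on the minus strand, with 2983 bases between them. Both are in introns of the protein-coding gene Nfyc, which encodes a subunit of the transcription factor NF-Y. MiR-30c-5p is cut from both Mir30c-1 and Mir30c-2 with 1 sequence, so its count does not say which hairpin it came from.

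The libraries held 4684611 to 9860236 counts after repeat rows were removed, with 674 to 682 miRNAs having at least 1 read. Levels are given as CPM (counts scaled to a common depth) on library sizes scaled by edgeR's TMM method, and levels were compared between miRNAs without scaling for length (22 to 23 bases for the 5 members with a sequence). Sham 4 and sham 5 stood apart, with TMM factors of 0.667 and 0.721 beside 0.954 to 1.195 in the other 13 libraries, and the comparisons of the members with sham are given with and without them. The summed neuron markers (miR-124-3p, miR-128-3p, miR-137-3p and miR-138-5p), which check the labelled brain tissue, were at 17749.7 to 31271 CPM in all 15 libraries. The 4 oligodendrocyte markers (miR-219a-2-3p, miR-219a-5p, miR-338-3p and miR-338-5p) summed to 24226 and 20803 CPM in sham 4 and sham 5, against 7153 to 11267 CPM in the other 13. The summed mural markers (miR-143-3p and miR-145a-5p) were at 31349.7 and 23992 CPM in these libraries, below BYHWD 1 (34735 CPM) and above the other 12 (12301 to 23419 CPM). Endothelial markers summed to 9688 to 15054 CPM over the 15 libraries and erythroid markers to 106 to 414 CPM. Leukocyte markers summed to 289 to 401 CPM in sham, 475 to 651 CPM in ICH and 321 to 737 CPM in BYHWD. No marker was at 0 in any library, and the markers called were 1 of 4 for leukocytes in each comparison with sham.

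MiR-30a-5p was the most abundant member, with a mean of 59019 CPM over the 15 libraries and rank 2 among all miRNAs. The other members were at rank 12 (miR-30d-5p, 24383 CPM), 29 (miR-30c-5p, 8912 CPM), 32 (miR-30e-5p, 8059.9 CPM), 73 (miR-30a-3p, 1540.1 CPM), 77 (miR-30b-5p, 1363 CPM) and 83 (miR-30e-3p, 1237 CPM). These means and ranks include sham 4 and sham 5. Over the other 13 libraries the means were 41821 CPM for miR-30a-5p, 20802 CPM for miR-30d-5p and 4957 CPM for miR-30e-5p. Among the 5p arms the order of levels was miR-30a, miR-30d, miR-30c, miR-30e and miR-30b in 13 libraries. In sham 4 and sham 5 miR-30e-5p stood above miR-30c-5p, so these neighbours in the order are not separated over all libraries. Over the other 13, miR-30c-5p was at 6828 to 16513 CPM and miR-30e-5p at 4317 to 5965 CPM, which do not overlap. The levels of miR-30a-3p, miR-30b-5p and miR-30e-3p overlapped each other.

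**Figure D1:**
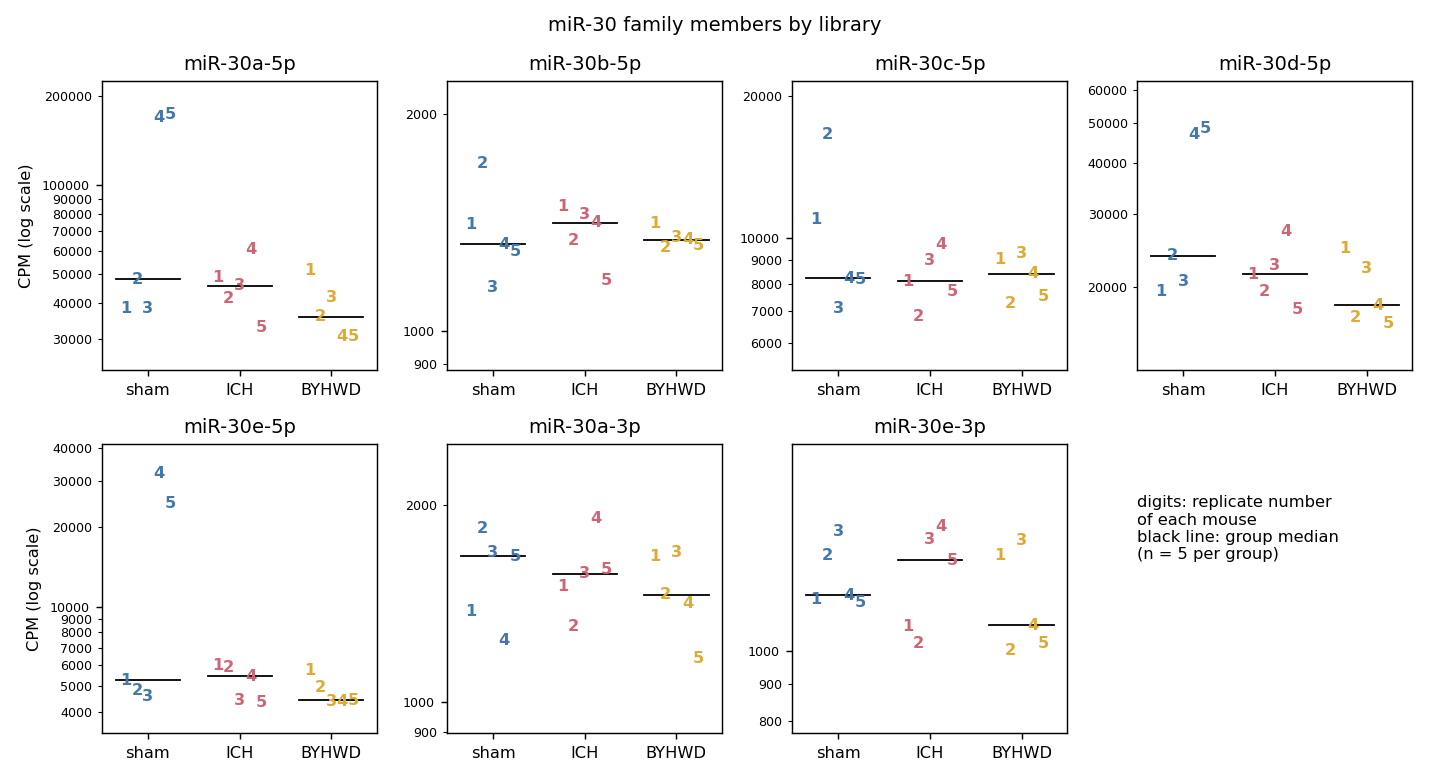
Level of each of the 7 members in CPM (log axis) in every library, by group, with sham 4 and sham 5 marked. MiR-30a-5p, miR-30d-5p and miR-30e-5p are highest in sham 4 and sham 5 and otherwise overlap between sham, ICH and BYHWD, while miR-30c-5p is highest in sham 2.

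MiR-30a-5p was at 38083, 47897, 38167, 168687 and 172939 CPM in sham 1 to 5. Its levels in ICH 1 to 5 were 48699, 41271, 45514, 60603 and 33034 CPM, and in BYHWD 1 to 5 they were 51536, 35774, 41614, 30689.5 and 30786 CPM. Only sham 4 and sham 5 were high, at 4.09 and 4.19 times the median of the other libraries, and sham 1 to 3 lay inside the range of the 10 libraries with a bleed. The fitted log2 difference of ICH from sham was -1.02 (SE 0.41, 95% interval -1.89 to -0.16, edgeR adjusted p = 0.161). In the 13 other libraries it was 0.14 (SE 0.19, interval -0.27 to 0.54, edgeR adjusted p = 0.722). Without sham 5 alone it was -0.66 (edgeR adjusted p = 0.361). Limma-voom was run with sample quality weights, which give deviating libraries less weight, here and below. It gave -0.63 (limma-voom adjusted p = 0.402).

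MiR-30e-5p, which differs from miR-30a-5p at 1 base, was high in the same libraries, by a larger factor. It was at 5264, 4790.0, 4548, 31924 and 24527 CPM in sham 1 to 5. In ICH 1 to 5 it was at 5965, 5862, 4412, 5447 and 4317 CPM, and in BYHWD 1 to 5 at 5749, 4946, 4352, 4385 and 4412 CPM. The values of sham 4 and sham 5 were 6.66 and 5.12 times the median of the other 13, among which the highest was only 1.38 times the lowest. ICH differed from sham by -1.45 on the log2 scale (SE 0.47, interval -2.46 to -0.44, edgeR adjusted p = 0.106), and by 0.08 without sham 4 and sham 5 (SE 0.14, interval -0.20 to 0.37, edgeR adjusted p = 0.751). Without sham 4 alone it was -0.93, and limma-voom gave -0.75 (adjusted p = 0.268 and 0.345).

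MiR-30d-5p was also high in these libraries, by a smaller factor. Its levels were 19487, 23769, 20601, 46763 and 48547 CPM in sham 1 to 5, then 21479, 19469, 22545, 27189 and 17644 CPM in ICH 1 to 5. In BYHWD 1 to 5 they were 24813, 16862, 22179, 18063 and 16332 CPM. Sham 4 and sham 5 were 2.27 and 2.36 times the median of the other 13, and all other sham libraries lay within the range of those with a bleed. The log2 difference of ICH from sham was -0.56 (SE 0.25, interval -1.08 to -0.03, edgeR adjusted p = 0.206), and 0.01 without sham 4 and sham 5 (SE 0.16, interval -0.32 to 0.35, edgeR adjusted p = 0.964). Without sham 5 alone it was -0.34, and on total counts without scaling -0.32.

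MiR-30c-5p, which carries the same seed, did not share this pattern. It was at 10942, 16513, 7084, 8213 and 8183 CPM in sham 1 to 5, so that sham 4 and sham 5 were at 0.978 and 0.974 times the median of the other 13 while sham 2 was at 1.97 times. In ICH 1 to 5 it was at 8107, 6828, 8969, 9698 and 7701 CPM, and in BYHWD 1 to 5 at 8997, 7255, 9273, 8399 and 7514 CPM. Sham 1 and sham 2 lay above all 10 libraries with a bleed, and the other sham libraries lay among them. The log2 difference of ICH from sham was -0.30 (SE 0.19, interval -0.71 to 0.11, edgeR adjusted p = 0.393). Leaving out sham 4 and sham 5 gave -0.49 (SE 0.20, edgeR adjusted p = 0.213), and leaving out sham 2 gave -0.06 (SE 0.15, edgeR adjusted p = 0.848). In sham 2 the 3 choroid plexus markers (miR-204-5p, miR-211-5p and miR-1298-5p) were at 17992 CPM and 5 markers of ciliated and other epithelium at 12133 CPM, the highest of all libraries. ICH 3, with 17242 and 12117 CPM of these markers, had 8969 CPM of miR-30c-5p, and sham 1, with 1816 and 5569 CPM of them, had 10942 CPM. The part that the tissue behind these markers has in the level of miR-30c-5p was not tested.

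MiR-30b-5p varied least among the 5p arms over the 15 libraries. It was at 1406, 1707, 1147, 1319 and 1290.2 CPM in sham 1 to 5, at 1489, 1335, 1452, 1412 and 1176 CPM in ICH 1 to 5, and at 1409, 1307, 1349, 1337 and 1314 CPM in BYHWD 1 to 5. The highest library was 1.49 times the lowest, also without sham 4 and sham 5, where the factor for miR-30e-5p was 1.38. The SD of log2 CPM over those 13 libraries was 0.15 for miR-30b-5p and 0.18 for miR-30e-5p. Sham 4 and sham 5 were at 0.978 and 0.956 times the median of the rest for miR-30b-5p. ICH differed from sham by -0.00 on the log2 scale (SE 0.11, interval -0.24 to 0.24, edgeR adjusted p = 0.998), and by -0.06 in the fit lacking sham 4 and sham 5 (SE 0.12).

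The 3p arms of miR-30a and miR-30e were not high in the libraries in which their 5p arms were. MiR-30a-3p was at 1376, 1839, 1694, 1243 and 1669.5 CPM in sham 1 to 5, at 1503, 1305, 1569, 1908 and 1596 CPM in ICH 1 to 5, and at 1671, 1457, 1689.7, 1416 and 1166 CPM in BYHWD 1 to 5. MiR-30e-3p was at 1175, 1353, 1456, 1192 and 1163 CPM in sham 1 to 5, at 1081, 1023, 1419.8, 1481 and 1332 CPM in ICH 1 to 5, and at 1352, 1002, 1418, 1083 and 1022 CPM in BYHWD 1 to 5. The groups overlapped for both arms, and sham 4 and sham 5 were at 0.792 and 1.06 times the median of the other 13 for miR-30a-3p and at 0.895 and 0.873 times for miR-30e-3p. ICH differed from sham by 0.01 (SE 0.14, interval -0.29 to 0.31) for miR-30a-3p and by -0.00 (SE 0.14, interval -0.29 to 0.29) for miR-30e-3p on the log2 scale (edgeR adjusted p = 0.973 and 0.998). In the fit lacking sham 4 and sham 5 the differences were -0.07 (SE 0.15) and -0.08 (SE 0.16).

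The comparison of ICH with sham asks what differed 14 days after the bleed. For the miR-30 family, 0 of 7 members were called at an edgeR adjusted p under 0.05, where 0.767% of all 652 miRNAs tested were called (5, all higher). The members had a median log2 difference of -0.30, against -0.02 over all miRNAs tested. At an unadjusted p under 0.05 there were 3 of 7 members (miR-30a-5p, miR-30d-5p and miR-30e-5p), where 137 of 652 miRNAs (21%) reached it. Without sham 4 and sham 5 the members' median was -0.06 and that of all 660 miRNAs then tested was -0.03, with 0 members called, where 1.06% of all miRNAs were. MiR-30c-5p alone then had an unadjusted p under 0.05 in edgeR, 1 of 7 members (14.3%) beside 116 of 660 miRNAs (17.6%). DESeq2 on all libraries called 1 of 7 members, miR-30e-5p, lower in ICH (log2 difference -1.49, adjusted p = 0.0268), where it called 7.36% of all miRNAs. Without sham 3, edgeR called the same member (log2 difference -1.68, adjusted p = 0.0474) and 4.75% of all miRNAs. In bulk RNA, fewer cells that make a miRNA and less of it per cell cannot be told apart. The values of miR-30a-5p, miR-30d-5p and miR-30e-5p changed sign without sham 4 and sham 5, in which miR-30a-3p and miR-30e-3p were not high. What set these libraries, with TMM factors of 0.667 and 0.721, apart was not tested. Nor was the part of the oligodendrocyte and mural markers, high in sham 4 and sham 5, or of the leukocyte markers, higher in ICH. BYHWD 1, highest in mural markers (34735 CPM), had 51536 CPM of miR-30a-5p and 5749 CPM of miR-30e-5p.

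**Figure D2:**
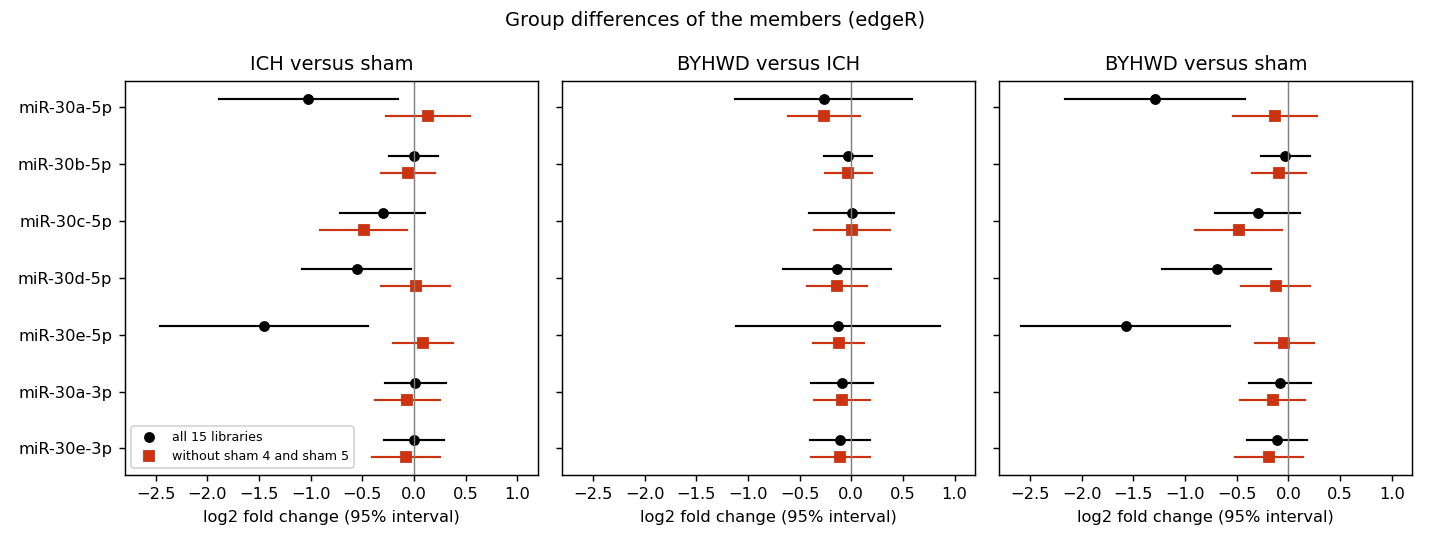
Log2 difference between groups for each member in the 3 comparisons, as points with 95% intervals, from all 15 libraries and from the 13 without sham 4 and sham 5. The negative values of miR-30a-5p, miR-30d-5p and miR-30e-5p against sham lie near 0 once these libraries are left out, and those of miR-30c-5p do not.

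Setting BYHWD against ICH addresses what differed with the decoction among mice with a bleed. Levels in ICH and BYHWD overlapped for all members. MiR-30a-5p averaged 45824 ± 10138 CPM in ICH and 38079.9 ± 8756 CPM in BYHWD, miR-30d-5p 21665 ± 3616 and 19649.8 ± 3686 CPM, and miR-30e-5p 5200.5 ± 788 and 4769 ± 600.0 CPM (mean ± SD, n = 5 each). MiR-30c-5p averaged 8260.4 ± 1113 CPM in ICH and 8288 ± 888 CPM in BYHWD, and miR-30b-5p 1373 ± 124 and 1343 ± 40.4 CPM. None of the 7 members was called, with 0% of all 652 miRNAs called, and none had an unadjusted p under 0.05 in edgeR, where 31 of 652 miRNAs (4.75%) did. DESeq2 and limma-voom called no member and 0% of all miRNAs. The log2 differences, 6 of 7 of them negative, ran from -0.27 (miR-30a-5p, SE 0.40) to 0.00 (miR-30c-5p, SE 0.19), with a median of -0.11 beside 0.00 over all miRNAs. The intervals of miR-30a-5p (-1.12 to 0.59) and miR-30e-5p (-1.11 to 0.86) include a 2-fold drop. In the fit without sham 4 and sham 5 the intervals were narrower, with -0.27 for miR-30a-5p (SE 0.16, interval -0.62 to 0.08) and all 7 intervals between -0.62 and 0.38.

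Setting BYHWD against sham addresses the distance of treated mice from those never bled. This comparison shares the sham libraries with the first comparison, and miR-30e-5p, miR-30a-5p and miR-30d-5p again had the lowest values. Again 0 of 7 members were called, where 2.30% of the 652 miRNAs were (13 higher, 1.99%, and 2 lower, 0.307%). The log2 differences were -1.29 for miR-30a-5p (SE 0.41, edgeR adjusted p = 0.0989), -1.58 for miR-30e-5p (SE 0.48, edgeR adjusted p = 0.0933) and -0.70 for miR-30d-5p (SE 0.25, edgeR adjusted p = 0.125). Leaving out sham 4 and sham 5 brought them to -0.13 (SE 0.19), -0.04 (SE 0.14) and -0.12 (SE 0.16), with edgeR adjusted p-values of 0.787, 0.938 and 0.738. MiR-30c-5p had -0.30 (SE 0.19, edgeR adjusted p = 0.416) with all libraries, -0.48 without sham 4 and sham 5 (SE 0.20, edgeR adjusted p = 0.272) and -0.05 without sham 2. With limma-voom miR-30a-5p was at -0.76 and miR-30e-5p at -0.81, and on total counts miR-30d-5p was at -0.43. For miR-30b-5p the edgeR value was -0.03 (SE 0.11), for miR-30a-3p -0.08 (SE 0.14) and for miR-30e-3p -0.11 (SE 0.14), and without sham 4 and sham 5 they were -0.09, -0.15 and -0.19. The median was -0.30 for the members and 0.02 over all miRNAs, and 3 of 7 members had an unadjusted p under 0.05, beside 138 of 652 (21.2%).

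These calls depended on the tool and on which sham libraries were kept. DESeq2 called 2 of 7 members lower in BYHWD than in sham, miR-30a-5p (log2 difference -1.33, adjusted p = 0.0217) and miR-30e-5p (-1.61, adjusted p = 0.0127), where it called 7.98% of all miRNAs. Without sham 1, edgeR called miR-30a-5p, miR-30d-5p and miR-30e-5p (adjusted p = 0.0383, 0.0414 and 0.0383), beside 6.73% of all miRNAs. Without sham 2 it called miR-30e-5p (adjusted p = 0.0451), beside 3.22%, and without sham 3 miR-30a-5p and miR-30e-5p (adjusted p = 0.0333 and 0.0275), beside 8.27%. Each of these fits kept sham 4 and sham 5, and the fit without both called no member, beside 1.06% of all miRNAs.

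The 5p arms were also summed, since they share a seed. In sham 1 to 5 the sum was 75182, 94676, 71546, 256905 and 255485 CPM, so sham 4 and sham 5 held more than 2 times the level of any other library. It averaged 82323 ± 14956 CPM in ICH and 72129 ± 13409.5 CPM in BYHWD (mean ± SD, n = 5 each), beside 80468 ± 12438 CPM in sham 1 to 3 (n = 3). As a share of all counts, which needs no scaling factor, the 5 arms took 17.1% and 18.4% in sham 4 and sham 5, and 6.36 to 10.5% in the other 13.

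The make-up of this sum changed in sham 4 and sham 5 as well. MiR-30a-5p made up 65.7% and 67.7% of it there, against 48.8 to 58.1% in the other 13 libraries. MiR-30e-5p made up 12.4% and 9.60%, against 5.06 to 7.84%. MiR-30c-5p took 3.20% in each, against 9.13 to 17.4%, and miR-30d-5p 18.2% and 19.0%, against 25.1 to 28.8%. In ICH and BYHWD the mean shares were 55.3% ± 2.39 and 52.5% ± 2.68 for miR-30a-5p, 26.4% ± 1.03 and 27.3% ± 1.26 for miR-30d-5p, and 10.2% ± 1.26 and 11.7% ± 1.39 for miR-30c-5p (SD, n = 5 each).

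**Figure D3:**
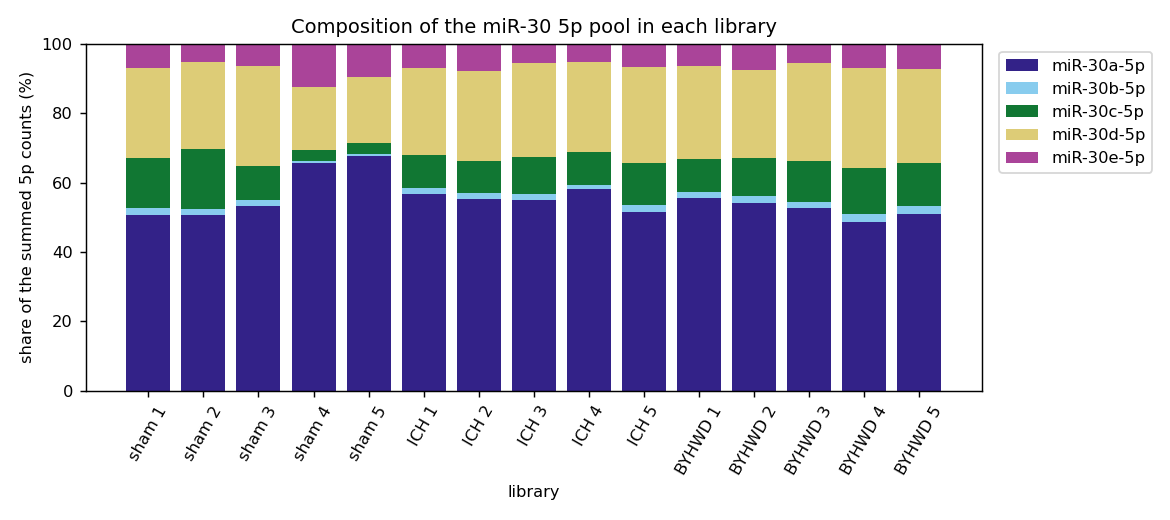
Share of the summed 5p reads taken by each 5p arm (stacked bars, percent) in every library. In sham 4 and sham 5 the share of miR-30a-5p is 65.7% and 67.7% and that of miR-30c-5p is 3.20%, against 48.8 to 58.1% and 9.13 to 17.4% in the other libraries.

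The ratio of 5p to 3p counts of a hairpin does not depend on library scaling. For miR-30a it was 136 and 104 in sham 4 and sham 5, and 20.7 to 32.4 in the other 13 libraries. For miR-30e it was 26.8 and 21.1, against 3.07 to 5.73, and for miR-30d 1325 and 1128, against 267 to 486. MiR-30b went the other way by a little, at 28.9 and 28.8 against 31.5 to 49.1. MiR-30c-5p over the sum of miR-30c-1-3p and miR-30c-2-3p was at 19.7 and 19.2, below the other 13 (23.4 to 57.7), with the highest values in sham 1 (50.8) and sham 2 (57.7). ICH and BYHWD overlapped, with mean ratios of 29.1 ± 4.87 and 25.6 ± 3.38 for miR-30a and of 4.25 ± 1.27 and 4.13 ± 0.677 for miR-30e (SD, n = 5 each). Of 51 hairpins with both arms at a mean of at least 50 CPM, 6 had a ratio at least 2-fold higher than the median of the other 13 libraries in both sham 4 and sham 5, and 0 had one at least 2-fold lower. MiR-30e, miR-30a and miR-30d were 3 of the 6, at rank 1 (miR-30e) and rank 3 (miR-30a) by the smaller of the shifts in these libraries. MiR-30d came last of the 6, with log2 shifts of 1.79 and 1.56. The hairpins of miR-30b, whose 3p arm averaged 34.8 CPM, and of miR-30c were not among the 51.

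**Figure D4:**
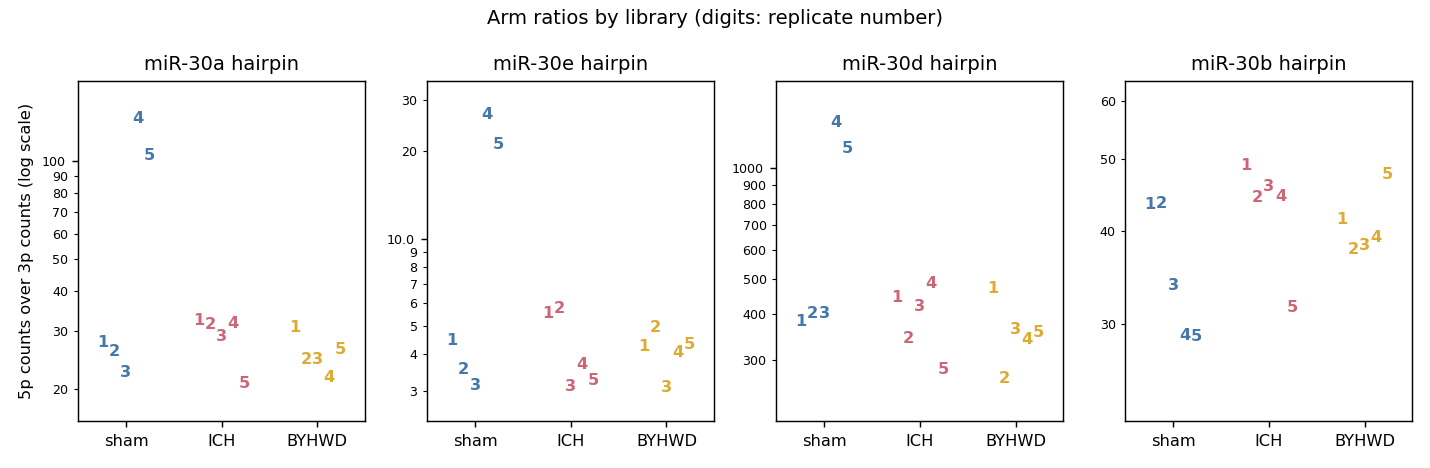
Ratio of 5p to 3p counts (log axis) in every library for miR-30a, miR-30e, miR-30d and miR-30b. In sham 4 and sham 5 the ratio is 136 and 104 for miR-30a and 26.8 and 21.1 for miR-30e, above all other libraries, and for miR-30b it is below them.

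Other miRNAs were high in sham 4 and sham 5 too. Of 290 miRNAs that averaged 50 CPM or more, 22 were at least 2 times the median of the other 13 in both libraries. These 22 include miR-30a-5p, miR-30d-5p and miR-30e-5p themselves. As high as miR-30a-5p in both were 5 of them, miR-30e-5p included. As high as miR-30e-5p in both were 2, miR-101a-3p and miR-101c, whose counts are nearly equal. High values in both libraries were thus found outside the family too.

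The other arms of the same hairpins are scarce. Over the 15 libraries miR-30b-3p was at 27.6 to 45.6 CPM, miR-30c-1-3p at 15.3 to 25.0 CPM and miR-30d-3p at 35.3 to 63.2 CPM. MiR-30c-2-3p reached 401 and 410.3 CPM in sham 4 and sham 5, against 180.2 to 299 CPM in the other 13, while miR-30c-5p was near the median there. MiR-30c-1-3p, from the hairpin beside Mir30e, was lowest in those libraries, at 15.3 and 15.7 CPM against 17.9 to 25.0 CPM. None of these 4 arms was called in any comparison by edgeR, and the lowest adjusted p was 0.234. The difference of ICH from sham of miR-30c-2-3p was -0.31 with all libraries and 0.01 in the fit lacking sham 4 and sham 5, and that of BYHWD from sham was -0.39 and -0.07. MiR-384-5p, of the same seed, was at 217 to 355 CPM and was not called either (log2 differences -0.20, 0.20 and 0.01 for ICH from sham, BYHWD from ICH and BYHWD from sham, SE 0.12 each, edgeR adjusted p = 0.385, 0.942 and 0.981). Its differences from sham in the fit lacking sham 4 and sham 5 were -0.29 for ICH and -0.08 for BYHWD (SE 0.14 each, edgeR adjusted p = 0.286 and 0.819). It was at 0.997 and 0.945 times the median of the other 13 libraries in sham 4 and sham 5.

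How closely the arms of the family moved together was measured as the SD of the log2 ratio of their counts over the 13 libraries without sham 4 and sham 5, in which a low value means that the ratio stayed the same. Over the 55 pairs of the 11 arms it ran from 0.08 to 0.38, with a median of 0.24. The lowest was that of miR-30a-3p and miR-30c-2-3p (0.08, where counting error alone gives 0.037), whose hairpins are neighbours on chromosome 1. Next was the pair miR-30b-3p and miR-30d-3p (0.10, where counting alone gives 0.12), then miR-30a-5p with miR-30d-5p (0.12) and miR-30a-3p with miR-30e-3p (0.12). The arms of 1 hairpin were at 0.19 for miR-30b, 0.22 for miR-30a, 0.26 for miR-30d and 0.31 for miR-30e, on both sides of the median of all pairs. MiR-30c-5p, which comes from both miR-30c hairpins, was above that median with miR-30c-2-3p (0.36) and with miR-30c-1-3p (0.37). The highest value was that of miR-30c-5p with miR-30e-5p (0.38), and their hairpins Mir30c-1 and Mir30e are neighbours on chromosome 4. MiR-30e-3p with miR-30c-1-3p, from the same neighbours, was at 0.16. MiR-30a-5p with miR-30c-5p, from the neighbours on chromosome 1, was at 0.34. Whether nearness on a chromosome plays a part was not tested. These values are descriptions, and the 2 arms of a pair are read from the same library at the same depth.

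**Figure D5:**
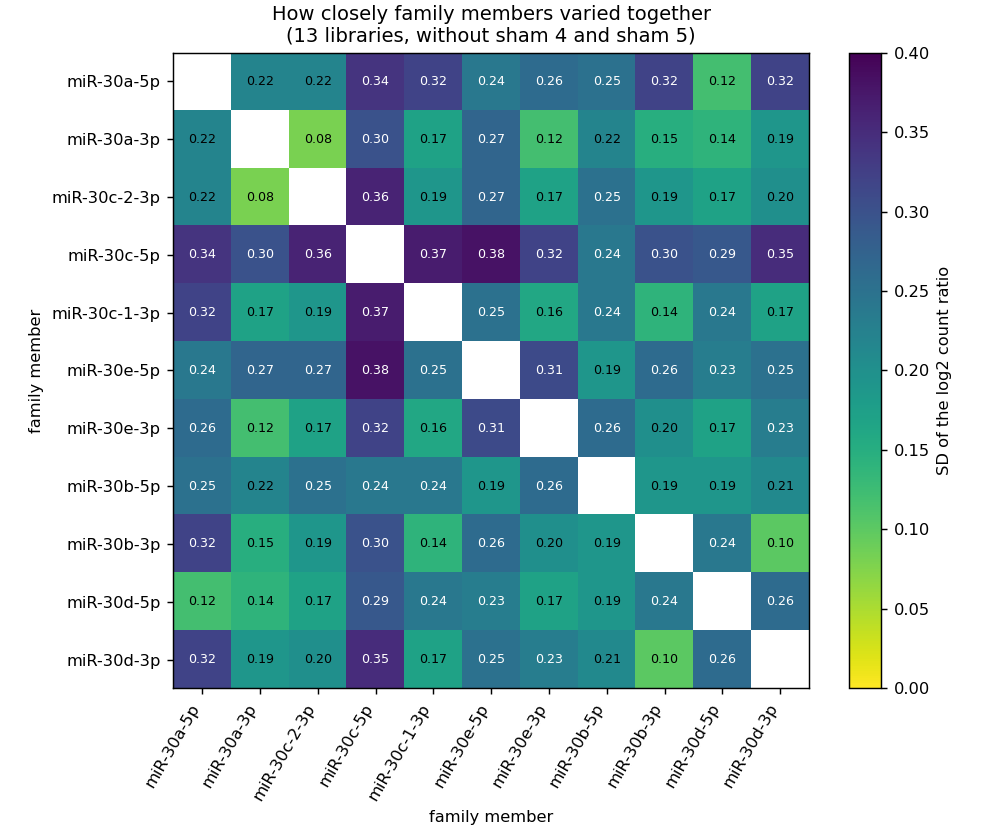
SD of the log2 ratio of counts for each pair of miR-30 arms over 13 libraries, without sham 4 and sham 5, as a colour scale. Values run from 0.08 (miR-30a-3p with miR-30c-2-3p) to 0.38 (miR-30c-5p with miR-30e-5p).

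By the same measure, the nearest miRNAs outside the family differed between members. Over all 15 libraries, miR-101b-3p was nearest to miR-30a-5p (0.20, where the median over all miRNAs compared was 0.83), and it was also nearest over 13 libraries (0.16, median 0.36). There miR-195a-5p and miR-376c-3p were also at 0.16. For the other members that median was 0.31 to 0.95 over 15 libraries and 0.28 to 0.41 over 13. MiR-30e-5p was nearest to miR-101a-3p and miR-101c over 15 libraries (0.20 each) and to miR-26a-5p and miR-191-5p over 13 (0.15 each). MiR-30d-5p was nearest to miR-3535 over 15 (0.15) and to miR-29c-5p over 13 (0.11). MiR-30b-5p was nearest to miR-26b-5p in both (0.12 and 0.13). MiR-30c-5p was nearest to miR-24-3p and miR-496a-3p over 15 (0.18 each) and to miR-132-5p and miR-337-5p over 13 (0.16 each). MiR-30a-3p was nearest to miR-129-5p in both (0.08 and 0.09). MiR-30e-3p was nearest to miR-99a-5p over 15 (0.13) and to miR-192-5p and miR-99a-5p over 13 (0.12 each).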

How the data were processed

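The authors deposited whole-number read counts per mature miRNA, not normalized, as the tables themselves show. Per the labels' protocols, the NEBNext small RNA kit was used with selection by size. Per the submitters' processing notes, cutadapt, Bowtie and edgeR were used, and the build named is hg38, a human assembly; versions and the rule for reads that match several loci are not given in the sources used here. In 15 of 15 tables the first count value was the library's own number, with 929 counts for 928 names, so each count was given to the name 1 row above. The 2 rows of miR-30c-5p then differed by at most 0.00906%, against 23.3- to 66.5-fold as printed. Counts used for miR-30a-5p, miR-30b-5p, miR-30d-5p and miR-30e-5p stand beside miR-299a-5p, miR-30a-5p, miR-30b-5p and miR-30d-5p in the tables. A name on several rows was taken from its highest-total row.

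Counts were tested with edgeR 4.0.16 (R 4.3.3; quasi-likelihood F-test, robust, TMM scaling, filterByExpr by group, 15 libraries, no covariates) over 652 miRNAs, adjusted by Benjamini-Hochberg and called at an adjusted p under 0.05. Intervals are 95%. The 7 members, the other arms, miR-384-5p and the marker lists were named by rules chosen with earlier results of these data known, and so was leaving out sham 4 and sham 5. Outside the family the nearest miRNA (mean of at least 50 CPM) is given for each member, with those of equal printed value among the nearest 3. The 25 alternatives per tested value include DESeq2 1.42.0 and limma 3.58.1 (voom with sample quality weights).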

Additional observations from a re-analysis of the deposited data

Results flagged for a closer look

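In groups of 5, a library was singled out where its gap to the nearest other exceeded 0.71 of the group's range (Dixon's criterion). Chance gives about 1 in 20 groups, and 3 of 54 groups tested were singled out. MiR-30b-3p was at 37.3 CPM in ICH 5, above the next ICH library at 31.7 CPM. It was at 27.6 CPM in BYHWD 5, below the next BYHWD library at 34.0 CPM. The ratio of 5p to 3p counts of miR-30b was 31.5 in ICH 5, below the next ICH library at 44.4. Sham 4 and sham 5 were high together, which this criterion, made for 1 library, does not pick out.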

How the results depend on the processing

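For ICH against sham, 5 miRNAs were called in all, 9 on total counts without scaling, 48 with DESeq2 and 4 to 31 when 1 library was left out (12 without sham 2, 31 without sham 3, 11 without ICH 4). The members called were 0, 1 with DESeq2 and 0 to 1 with 1 library left out. For BYHWD against sham, 15 were called in all, 52 with DESeq2, 6 with limma-voom, 9 with a replicate block, 9 from the libraries of these groups only, 23 with all rows as deposited, 7 without sham 4 and sham 5, and 2 to 54 with 1 library left out (44 without sham 1, 54 without sham 3, 2 without sham 4, 5 without sham 5, 8 without BYHWD 2, 9 without BYHWD 4, 3 without BYHWD 5). Members called were 0, 2 with DESeq2 and 0 to 3 with 1 library left out. The cause was not tested. BYHWD against ICH gave 0 under every setting run. Total counts moved the median over all miRNAs by 0.13 for BYHWD against sham.

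As far as the labels say, the replicate numbers do not pair the libraries. Deviations of equal numbers correlated at -0.43 to 0.22, and 3 of 15 pairs passed 0.1. Unequal numbers were not compared, so these values do not show whether libraries were handled in pairs. With the replicate block miR-30a-5p was at -0.85 and miR-30e-5p at -1.11 for ICH against sham (edgeR adjusted p = 0.334 and 0.275), and no member was called.

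The values of miR-30a-5p, miR-30d-5p and miR-30e-5p for ICH against sham (-1.02, -0.56 and -1.45) changed sign without sham 4 and sham 5, to 0.14, 0.014 and 0.084. With limma-voom miR-30a-5p and miR-30e-5p were at -0.63 and -0.75 for ICH and at -0.76 and -0.81 for BYHWD against sham, and on total counts miR-30d-5p was at -0.32 and -0.43.

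The other changes of sign were of smaller values. ICH against sham: miR-30a-3p was at -0.016 with RLE scaling, -0.016 with DESeq2, -0.013 with limma-voom, -0.039 with all rows, -0.017 with repeat rows summed and -0.065 without sham 4 and sham 5 (-0.066 to 0.078 with 1 library left out). MiR-30b-5p was at 0.093 on total counts, 0.015 without the filter and 0.0030 with the replicate block (-0.062 to 0.091), and miR-30e-3p at 0.090 on total counts and 0.013 without the filter (-0.061 to 0.052). Without sham 4 and sham 5, miR-30c-1-3p at -0.076 and miR-30c-2-3p at 0.011. BYHWD against ICH: miR-30c-5p was at -0.012 without the filter (-0.069 to 0.068), miR-30b-5p at 0.033 with limma-voom and 0.013 with all rows, and miR-30d-3p at 0.021 on total counts, 0.0003 with DESeq2 and 0.040 with all rows (-0.075 to 0.039). With 1 library left out, miR-30b-3p ran from -0.0042 to 0.099 and miR-30c-1-3p from -0.11 to 0.021. BYHWD against sham: on total counts miR-30b-5p was at 0.090, miR-30a-3p at 0.040 and miR-30e-3p at 0.0084. MiR-384-5p was at -0.0093 with RLE scaling, -0.010 with DESeq2, -0.024 with limma-voom, -0.013 from the groups compared, -0.017 with repeat rows summed and -0.082 without sham 4 and sham 5 (-0.068 to 0.049), and miR-30c-1-3p at -0.12 without those (-0.024 to 0.17). MiR-30b-5p ran from -0.093 to 0.059. Without sham 4 and sham 5 the sham mean of the summed 5p arms went from 150759 to 80468 CPM, that of the miR-30a ratio from 63.1 to 25.4 and that of the miR-30e ratio from 11.8 to 3.71. These moves are under 1 SD of the 5 sham libraries (96652 CPM, 52.9 and 11.3), an SD that sham 4 and sham 5 widen (12438 CPM, 2.63 and 0.695 over sham 1 to 3).

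The lowest count of a member in any library was 5041 (miR-30e-3p), while miR-30c-1-3p had as few as 73, miR-30b-3p 136 and miR-30d-3p 182, so counting error weighs more on those arms.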
